A study of Mus musculus with 6 samples.

Results

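The vehicle baseline of cultured mouse brain endothelium is given by the 3 libraries made from cells that received dimethyl sulfoxide (DMSO) alone, out of 6 libraries in the series. They were chosen by their treatment label, with no use of measured values, and the 3 libraries of cells given the drug dolutegravir were not used. The cells were primary brain microvascular endothelial cells of wild-type C57BL/6 mice, grown on gelatin in a commercial endothelial medium that contained vascular endothelial growth factor (VEGF), epidermal growth factor, hydrocortisone, heparin and 5% fetal bovine serum. They were used between passages 2 and 6, reached confluence and were kept with DMSO for 24 h. The labels do not give the DMSO concentration, the number, age or sex of the mice, or whether the 3 libraries came from separate cultures. The library names carry the tag P4 (replicate 1) or P5 (replicates 2 and 3) and the numbers 1, 1 and 3, neither of which the labels define. The spread between these libraries may therefore be technical. All errors below are standard deviations (SD) over n = 3 libraries. With only 1 group there was no contrast to test, and 3 libraries cannot give a two-sided exact permutation p below 0.25, so no p-values are given. Fresh brain tissue was not analysed here, and a gene is called present or low in these cultures, never kept or lost relative to the brain.

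Brain capillary endothelium is the cellular part of the blood-brain barrier. Its cells are sealed by tight junctions built from claudins and junctional adhesion molecules, feed the brain through carrier proteins of the solute carrier family, return lipophilic drugs to the blood through ATP-driven pumps, and keep vesicle traffic low. In tissue this program is sustained by neighbouring pericytes and astrocytes and by Wnt ligands acting through Fzd4 and beta-catenin. Endothelium elsewhere follows other programs, such as the arterial program of Notch and Sox17, the venous program of Nr2f2 and Ephb4, the lymphatic program of Prox1, and the scavenging program of liver sinusoids marked by stabilins.

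The 3 libraries held 47574809, 55998253 and 41162353 counts, so that 1 CPM (a count relative to the scaled size of its library) stood for 40.6 to 56.1 counts. Levels of different genes are compared only as CPM per kilobase (kb) of exon, since a longer transcript gives more counts. A gene with no count in all 3 libraries together could still lie at up to 0.0207 CPM (3 counts), a limit that covers counting error only. A gene was called expressed at 1 CPM per kb or more in each library, and below the limit when it stayed under 0.1 CPM per kb in each. By these rules 10645 of 38606 genes (27.6%) were expressed, 24388 (63.2%) were below the limit and 18778 had no count. Of 21818 protein-coding genes, 10258 (47.0%) were expressed, with a median of 9.43 CPM per kb among the expressed and 0.542 over all coding genes. Long noncoding RNA was sparse, with 135 of 5595 long intergenic RNAs and 97 of 2955 antisense RNAs expressed. Mitochondrially encoded genes took 2.47%, 3.09% and 4.27% of counts in replicates 1, 2 and 3, and ribosomal protein genes 3.95%, 4.09% and 3.28%.

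The cells carried the general endothelial transcripts that were listed. These markers and all gene lists were chosen with earlier results of these data known, so full counts of expressed members may be built in. Cldn5, the main claudin strand protein of brain endothelial tight junctions, stood at 994, 998 and 791 CPM in replicates 1, 2 and 3, or 655 ± 83.4 CPM per kb, rank 32 of all genes. Aqp1, a water channel typical of peripheral endothelium and low in healthy brain capillaries, stood at 1931, 1520.3 and 1211 CPM, or 592 ± 138 CPM per kb. Replicate 3 was lowest for both genes, and Aqp1 had the widest spread of the 8 markers, its highest library 1.59 times its lowest. Cdh5, the VE-cadherin of endothelial adherens junctions, was read at 2117, 1941 and 1904 CPM (473 ± 27.1 per kb). Pecam1, which encodes the junctional adhesion receptor CD31, was read at 1457, 1585 and 1518 CPM (244 ± 10.3 per kb). The libraries were close to each other for both. Vwf, the clotting protein of Weibel-Palade bodies, gave 3619, 2763 and 3028 CPM, more counts than any other of the 8 but only 195 ± 27.3 CPM per kb of its long exon union. Replicate 1 was highest. With the longest annotated transcript in place of the exon union, Pecam1 came to 442 and Vwf to 355 CPM per kb, so the ranks of these genes are approximate, while Cldn5 (655) and Aqp1 (592) did not move.

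The remaining markers are known from scavenging, sinusoidal or lymphatic endothelium. Stab1, a scavenger receptor, stood at 1974, 1622 and 1697 CPM (171 ± 18.001 per kb) and its paralog Stab2, typical of liver sinusoids, at 438, 408 and 409 CPM (47.8 ± 1.91 per kb). Lyve1, a hyaluronan receptor of lymphatic and sinusoidal endothelium, stood at 201, 199 and 217 CPM (70.5 ± 3.44 per kb). Each was expressed in all 3 libraries, and replicate 1 was highest for both stabilins. In the order of levels per kb of exon union, Cldn5, Aqp1, Cdh5, Pecam1, Vwf, Stab1, Lyve1 and Stab2, the ranges of Cldn5 and Aqp1, of Aqp1 and Cdh5, and of Vwf and Stab1 overlapped between libraries, and those of the other neighbours did not. This order rests on the length used. With the median annotated transcript as the length, Vwf (1436), Stab1 (1427) and Cdh5 (916 CPM per kb) stood above Cldn5 and Aqp1, followed by Stab2 (581), Pecam1 (508) and Lyve1 (111).

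**Figure D1:**
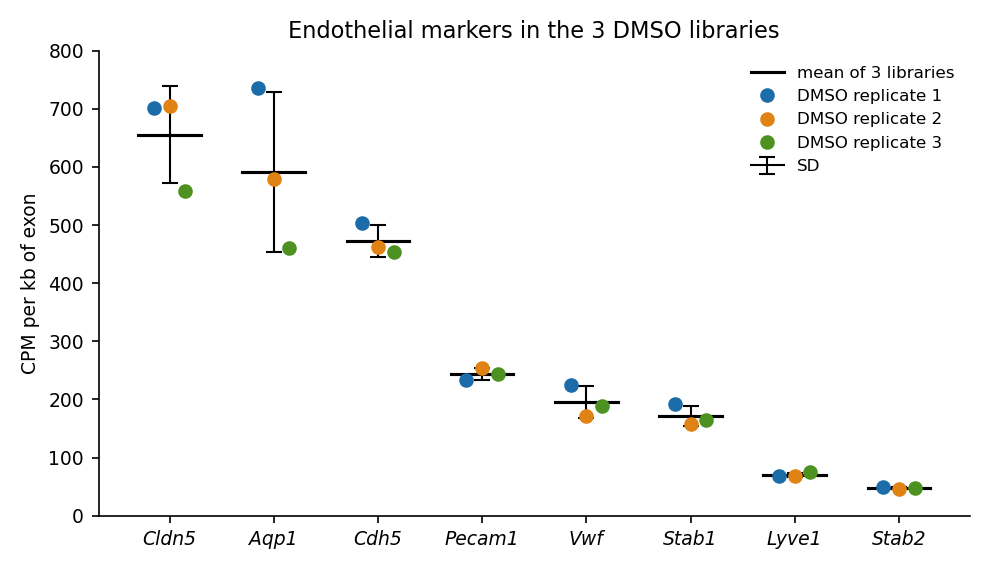
Level of 8 endothelial markers in each of the 3 DMSO libraries, in CPM per kb of exon on a linear axis from 0. Points are libraries, the horizontal line is their mean and the bar is the SD; Cldn5 and Aqp1 overlap at the top, and Stab2 and Lyve1 lie lowest with little spread.

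All 30 of 30 pan-endothelial genes were expressed, against 27.6% of all genes and 47.0% of coding genes. They lay between 13.8 (Sox7) and 473 (Cdh5) CPM per kb with a median of 80.3, and summed to 20531, 20121 and 20635 CPM. After Cdh5, the receptor genes Tie1 (315 ± 19.01 CPM per kb) and Calcrl (313 ± 68.8, the receptor of adrenomedullin with Ramp proteins) were highest. Nos3, the endothelial nitric oxide synthase, stood at 274 ± 21.9 and Kdr, the main VEGF receptor, at 218 ± 10.6 CPM per kb. The lowest members were Adgrl4 (26.5), the guidance receptor Robo4 (19.3) and the transcription factors Tal1 (14.3) and Sox7. The endothelial ETS factors Fli1 (59.4 ± 5.01) and Erg (52.6 ± 1.997) were also expressed in all 3 libraries.

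Markers of other cell types were mostly near the detection limit. They were 102 distinct markers of pericytes, fibroblasts, astrocytes, neurons, oligodendrocytes, microglia, epithelium and blood cells. Of these, 12 (11.8%) were expressed, 81 were below the limit and 33 had no count. Over all genes 27.6% were expressed and 63.2% below the limit, and over coding genes 47.0% and 43.3%. Pericyte and smooth muscle markers summed to 3.49, 2.14 and 1.94 CPM over 16 genes. None was expressed, Pdgfrb had 30 counts in all, and Rgs5, Kcnj8, Vtn, Cnn1, Higd1b and Atp13a5 had none. Fibroblast markers summed to 21.1, 14.8 and 16.1 CPM over 16 genes, led by Col6a3 (0.685 CPM per kb) and Pdgfra (0.6502), while Dcn had 23, Col1a2 2 and Dpt no counts. Epithelial and choroid plexus markers summed to 0.624, 0.606 and 0.443 CPM, with Epcam, Krt18, Ttr and Cdh1 at 0 counts.

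The expressed exceptions were few. Among 10 neuron markers, which summed to 207, 158 and 170.0 CPM, Nefl (a neurofilament subunit, 20.9 ± 4.17 CPM per kb) and Gad2 (a GABA-synthesizing enzyme, 18.2 ± 2.01) were expressed. The other 8, among them Snap25 (1 count), Gad1 and Map2 (0 counts each), were below the limit. Among 17 microglia and macrophage markers, which summed to 180.0, 191 and 171 CPM, 4 were expressed. They included the lysosomal gene Cd68 (77.1 ± 5.73), Tmem119 (12.2 ± 1.28) and Lyz2 (2.63). Ptprc, the pan-leukocyte CD45, had 1 count, and P2ry12, Tyrobp and the complement genes C1qa, C1qb and C1qc had none. Astrocyte markers summed to 70.1, 66.7 and 74.8 CPM, from Gja1 (6.21) and S100b (3.01), with Gfap at 9 and Aqp4 at 0 counts. Oligodendrocyte lineage markers summed to 56.9, 58.9 and 51.3 CPM, nearly all from Cnp (13.01), with Mog, Olig1, Olig2 and Mobp at 0 counts. Blood cell markers summed to 28.5, 25.3 and 19.7 CPM, from the platelet genes Pf4 (20.5 ± 4.22), Gp9 (3.26) and Itga2b (1.201), with haemoglobin genes, Cd3e and Ms4a1 at 0 counts. In bulk RNA, few cells with high levels and many cells with low levels cannot be told apart.

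**Figure D2:**
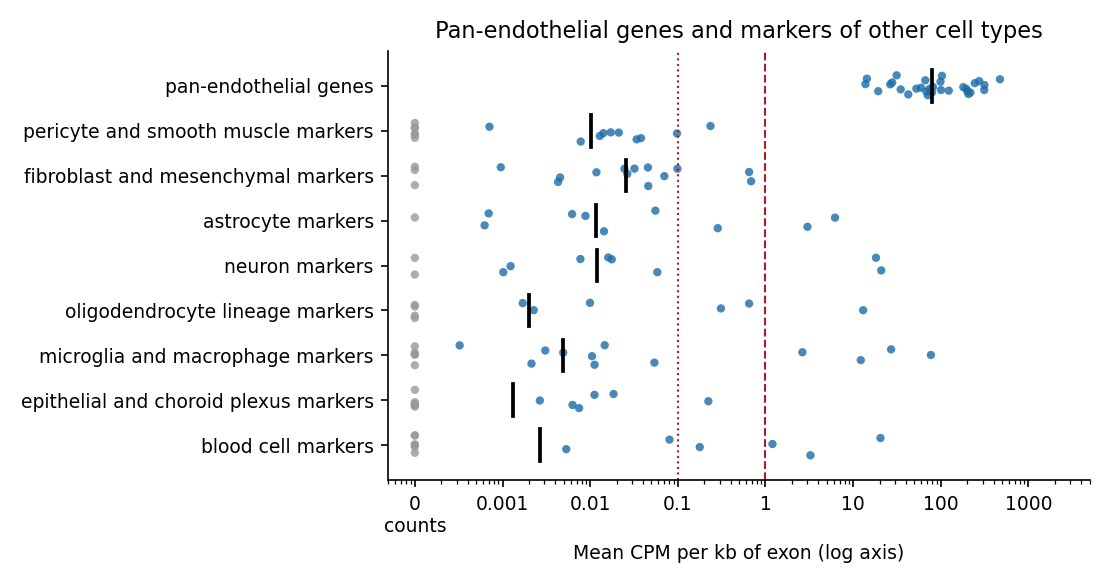
Mean level over the 3 DMSO libraries of pan-endothelial genes and of markers of 8 other cell types, in CPM per kb on a log axis. Each point is a gene, grey points at the left had 0 counts, black bars are list medians, and the dashed and dotted lines mark 1 and 0.1 CPM per kb; every pan-endothelial gene lies above 1 and most other markers lie below 0.1.

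The transcriptome was not dominated by a few genes. The 10 genes with most counts held 5.02% ± 0.27 of a library, the top 100 held 17.8% ± 0.52 and the top 1000 held 50.2% ± 0.16. Between 982 and 995 genes made up 50% of the counts and between 5534 and 5600 made up 90%. By counts alone the leaders were mt-Co1 (10212, 13207 and 16027 CPM), Eef1a1 (7594, 7369.5 and 6933), Eef2 (4108, 3973 and 3689), the lysosomal protease gene Ctsd (3781, 4161 and 3428) and the complement gene C3 (3548, 3605 and 3734). Next came the basement membrane collagen Col4a1 (4039, 3228 and 3452), mt-Co2 (2598, 3425 and 4612), the ferritin genes Ftl1 (4118, 3531 and 2938) and Fth1 (3309, 3507 and 3098), and Vwf. Replicate 3 was highest and replicate 1 lowest for both mitochondrial genes.

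Per kb of exon, 353 genes reached 100 CPM. Of the 20 highest, 9 were mitochondrially encoded, from mt-Co1 at 8510.3 ± 1882 to mt-Nd4l at 1139 ± 436 CPM per kb. Among nuclear genes the order began with Eef1a1 (2928 ± 135), which delivers transfer RNA to ribosomes, the ferritin light chain Ftl1 (2634 ± 440.4) and Ctsd (1612 ± 156). Then followed Ifitm3 (1211 ± 173), an interferon-inducible antiviral membrane protein, Rplp1 (1187 ± 171), Eef2 (1180.3 ± 64.2) and Rpl10-ps3 (1180.2 ± 156). Ly6a (1119 ± 235), the surface antigen Sca-1 of brain endothelium, Actg1 (1018 ± 5.13), Igfbp3 (994 ± 40.9), which binds insulin-like growth factors, and Ifitm2 (974 ± 111) completed the 20. This list rests on the length used, since 18 of the 20 were among the 20 highest with the longest transcript as the length and 9 with the median transcript. Some of these levels are also uncertain because reads can be split between genes that share sequence. Of the 50-base stretches in the longest transcript, 96.1% also occur in another gene for Rpl10-ps3, 78.9% for Ftl1 and 59.2% for Eef1a1. The share was 100% for mt-Co2, 99.9% for mt-Co3 and 99.5% for mt-Atp6, against 0% for Igfbp3. Just below the 20 stood the secreted matrix protein Sparc (728 ± 37.9, rank 30), C3 (706 ± 18.5, rank 31), Plac8 (887 ± 65.2, rank 24) and Ms4a6d (838 ± 181, rank 26). Within the long noncoding classes of the annotation (long intergenic, antisense, processed transcript and related), Malat1 was highest (224 ± 44.4 CPM per kb). It was followed by Cct6a (89.2 ± 5.64, whose main product is a chaperonin subunit), Peg13 (87.9 ± 1.83), 2410006H16Rik (86.1 ± 15.6) and Bc1 (69.4 ± 12.1). Other noncoding classes were not ranked. Among them, the microRNA gene Mir6236 stood at 111 and the mitochondrial ribosomal RNA mt-Rnr2 at 104 CPM per kb.

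Over all lists of endothelial subtypes and barrier functions, 176 of 280 distinct genes were expressed, 78 were below the limit and 25 had no count. The background for these and the following list counts is 27.6% expressed over all genes and 47.0% over coding genes. Of the capillary brain endothelial genes, 12 of 25 were expressed and 10 were below the limit, shares near those of coding genes overall (47.0% and 43.3%), with a median of 0.362 CPM per kb. Ly6a stood at 1081, 1645 and 1319 CPM and Ly6c1, a related surface antigen with 36.7% shared stretches, at 194, 326 and 259 CPM. Replicate 2 was highest for both. Slc2a1, the glucose carrier GLUT1, stood at 155, 144 and 132 CPM (40.9 ± 3.22 per kb), the lactate carrier Slc16a1 at 13.2 ± 2.104, the transferrin receptor Tfrc at 11.1 ± 2.07 and Sgms1 at 9.77 ± 0.496 CPM per kb. At the other end, the barrier transcription factors Lef1, Foxf2 and Foxq1 and the genes Car4, Slco1a4 and Slco1c1 had no count in any of the 3 libraries. Slc38a5 had 1, Apod 4 and Mfsd2a 4 counts in all. Mfsd2a, the lysolipid carrier that holds back vesicle transport in brain endothelium, was read at 2, 1 and 1 counts in replicates 1, 2 and 3.

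Arterial genes were expressed in 17 of 25 cases, at a median of 4.3998 CPM per kb. Fbln5, an elastic fibre protein, led at 2143, 2075 and 1948 CPM (297 ± 14.3 per kb), far above Notch4 (38.7 ± 2.03), Jag1 (30.3 ± 2.07), Tm4sf1 (28.2 ± 1.88), Sox17 (27.9 ± 2.82) and Notch1 (22.6 ± 0.836). The Notch target genes Hey1 and Hey2 had 25 and 7 counts, and Mgp, Cxcr4 and Stmn2 had 4, 3 and 1. Gkn3, a marker of brain arteries, had 7 counts. Notch receptors and the ligand Jag1 were present while these targets were near the detection limit.

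Venous genes were expressed in 13 of 20 cases, with a median of 6.58 CPM per kb. Lcn2, a siderophore-binding protein made by venous and inflamed endothelium, reached 528 ± 58.4 CPM per kb and Ephb4, the venous ephrin receptor, 209 ± 6.98. Selp, which encodes P-selectin, stood at 656, 681 and 668 CPM (151 ± 2.86 per kb), Nrp2 at 77.8 ± 6.74, Ackr3 at 58.9 ± 5.91 and the venous fate factor Nr2f2 at 27.6 ± 4.27 CPM per kb. Ackr1, the chemokine receptor of venules, had 22 counts, Ctsc 4 and Car4 none. With the exon union as the length, the arterial and venous transcription factors Sox17 and Nr2f2 were read at nearly the same level. They stood at 30.5, 28.2 and 24.9 against 24.6, 25.6 and 32.4 CPM per kb in replicates 1, 2 and 3, and their libraries overlapped. The level of Sox17 rests on the length used. The log2 ratio of Sox18 to Sox17 was 1.55 with the exon union, 0.99 with the longest and -0.12 with the median transcript.

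Lymphatic genes split between expressed members and members with almost no counts. Of 12 genes, 4 were expressed and 7 were below the limit. Both shares lay between those over all genes (27.6% and 63.2%) and over coding genes (47.0% and 43.3%). The expressed ones were Lyve1, the VEGF-C receptor Flt4 (35.7 ± 0.937 CPM per kb), Nr2f2 and Itga9 (5.23 ± 0.672). Prox1, the factor that sets lymphatic identity, Pdpn, Ccl21a and Thy1 had 0 counts, and Reln had 1. Of 20 sinusoidal and scavenger genes, 6 were expressed and 10 were below the limit, shares again between those over all genes and over coding genes. The expressed ones were Aqp1, Stab1, Lyve1, Stab2, the fatty acid receptor Cd36 (6.94 ± 2.57) and Il33 (3.16 ± 0.184). The C-type lectin Clec4g, Wnt2, Bmp2 and Cd209b had 0 counts, Maf had 1 and Fcgr2b 3. The sinusoidal factor Gata4 lay at the threshold, at 0.8998, 1.11 and 0.946 CPM per kb in replicates 1, 2 and 3, and Oit3 at 0.492 ± 0.0563.

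Fenestrated, tip and angiogenic genes were expressed in 15 of 20 cases and had a median of 42.8 CPM per kb. Plvap, the diaphragm protein of fenestrae and caveolae that is low in a mature barrier, stood at 140.4, 145 and 138 CPM (71.02 ± 1.87 per kb). Sparc, Col4a1 (479 ± 56.1), Col4a2 (281 ± 38.9), Plpp3 (109 ± 8.26) and Ramp3 (82.9 ± 14.2) were higher. The peptide gene Apln stood at 61.5 ± 3.78 CPM per kb while its receptor Aplnr stood at 3.72, 7.59 and 8.67 CPM, or 1.8003 ± 0.703 per kb. Tip cell markers were not all present, since Angpt2 stood at 0.347 CPM per kb and Esm1, Cxcr4 and Nid2 had 5, 3 and 3 counts.

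**Figure D3:**
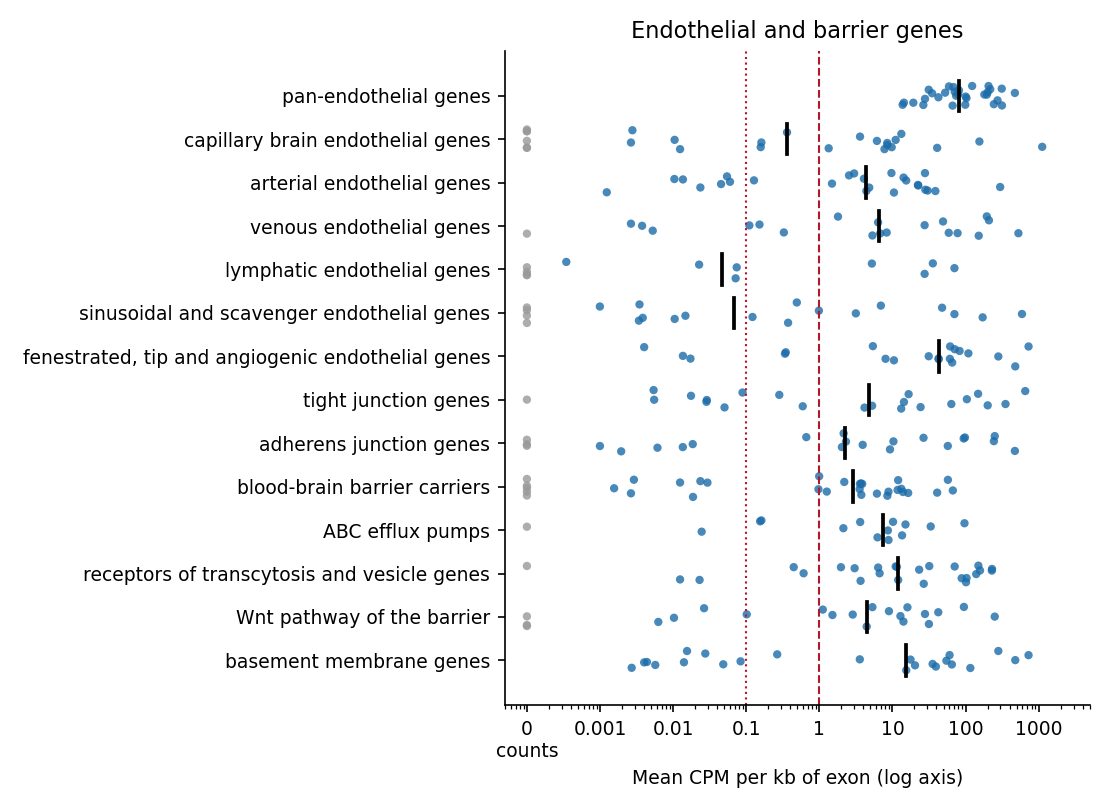
Mean level over the 3 DMSO libraries of each gene in 7 endothelial and 7 barrier lists, in CPM per kb on a log axis. Each point is a gene, grey points at the left had 0 counts, black bars are list medians, and the dashed and dotted lines mark 1 and 0.1 CPM per kb; all lists but the first hold genes on both sides of the lines.

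Tight junction genes were expressed in 12 of 22 cases, with 8 below the limit. After Cldn5 came the adhesion molecules Jam2 (1925, 2119 and 2339 CPM, 352 ± 34.2 per kb), Esam (201 ± 11.3) and F11r (148 ± 10.5), and the scaffold genes Tjp1 (104 ± 7.896), which encodes zonula occludens protein, and Cgnl1 (63.9 ± 4.13). Occludin, Ocln, stood at 22.5, 21.7 and 22.5 CPM, or 5.27 ± 0.107 per kb, far below Cldn5 in all 3 libraries. The other claudins linked with the barrier, Cldn1, Cldn3 and Cldn11, had 13, 1 and 8 counts, against 135968 for Cldn5. Tjp3 had 3 counts, Cgn, the epithelial paralog of Cgnl1, 24, and Marveld3 none.

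Adherens junction genes were expressed in 13 of 22 cases. Cdh5, beta-catenin Ctnnb1 (251 ± 6.77 CPM per kb), Pecam1, Nectin2 (98.1 ± 8.04), alpha-catenin Ctnna1 (94.3 ± 3.19) and p120-catenin Ctnnd1 (57.2 ± 4.83) led. Neuronal and epithelial members were near 0, with Ctnna2 at 1 count and Ctnna3, Cdh1 and Cdh3 at none. N-cadherin, Cdh2, stood at 3.92 ± 0.235 CPM per kb.

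Nutrient carriers of the barrier were expressed in 18 of 32 cases, at a median of 2.88 CPM per kb. Slc38a2, which takes up small neutral amino acids, led at 66.99 ± 5.71, followed by Slc3a2 (57.4 ± 3.65), the heavy chain of amino acid exchangers, and Slc2a1. Slc7a5, the light chain that pairs with Slc3a2 in the large neutral amino acid exchanger, stood at 8.52 ± 1.06 CPM per kb. The zinc exporter Slc30a1 (16.4 ± 2.05) and the zinc importer Slc39a10 (13.9 ± 1.75) followed. Slc19a3, Slc29a4, Slc22a8, Slco1c1 and Slco1a4 had 0 counts.

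ABC pumps were expressed in 10 of 14 cases. The cholesterol exporter Abca1 was highest at 96.7 ± 7.89 CPM per kb, before Abcc5 (33.4 ± 5.54), Abca2 (15.1 ± 0.448), Abcb8 (13.5 ± 1.03), Abcc1 (10.2 ± 0.7602) and Abcc4 (8.84 ± 0.567). Abcg2, the breast cancer resistance protein of brain capillaries, stood at 69.2, 70.7 and 71.9 CPM (8.66 ± 0.169 per kb). P-glycoprotein, the main drug pump of the barrier, has a pair of genes in mice, of which Abcb1a is the form known from brain capillaries. Here Abcb1a was read at 0.873, 0.891 and 0.886 CPM (0.161 ± 0.001696 per kb) and Abcb1b at 49.6, 49.1 and 51.1 CPM (6.25 ± 0.129 per kb). Abcb1b was 38.8 times higher per kb, in the same direction in 3 of 3 libraries. The size rests on the length used, with a log2 ratio of 5.28 for the exon union, 6.04 for the longest and 7.03 for the median transcript. The pair shares 16.98% (Abcb1a) and 18.3% (Abcb1b) of its 50-base stretches with other genes, so a part of the Abcb1a counts could not be assigned with certainty.

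The start regions of 5 genes are shown to set expressed genes beside genes with few or no counts: Cldn5 and Abcb1b, both expressed, Abcb1a, which lay between the limits of 0.1 and 1 CPM per kb, and Mfsd2a and the lactate dehydrogenase gene Ldhb, both below the lower limit. The last 3 had 128, 4 and 0 counts in all. Each window runs from 250 bases before to 50 bases after the RefSeq start in build GRCm38.p6, 5′ to 3′ on the gene's strand, with every CG dinucleotide in capitals. CG reads the same on both strands. The windows lie at chr16:18776597-18776896 (Cldn5, plus strand), chr5:8797897-8798196 (Abcb1b, plus), chr5:8566841-8567140 (Abcb1a, plus), chr4:122961139-122961438 (Mfsd2a, minus) and chr6:142507908-142508207 (Ldhb, minus).
Cldn5: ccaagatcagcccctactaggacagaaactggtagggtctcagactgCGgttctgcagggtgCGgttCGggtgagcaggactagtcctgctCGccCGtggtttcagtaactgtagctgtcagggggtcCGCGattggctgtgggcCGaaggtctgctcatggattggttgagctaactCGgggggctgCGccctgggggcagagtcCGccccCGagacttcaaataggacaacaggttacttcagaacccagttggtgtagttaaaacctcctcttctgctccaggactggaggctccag
Abcb1b: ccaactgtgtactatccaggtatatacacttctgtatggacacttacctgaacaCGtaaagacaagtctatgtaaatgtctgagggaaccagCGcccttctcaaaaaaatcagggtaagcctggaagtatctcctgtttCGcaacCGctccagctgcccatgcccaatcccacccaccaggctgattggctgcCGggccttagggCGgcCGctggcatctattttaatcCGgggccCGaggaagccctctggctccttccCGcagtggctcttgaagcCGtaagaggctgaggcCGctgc
Abcb1a: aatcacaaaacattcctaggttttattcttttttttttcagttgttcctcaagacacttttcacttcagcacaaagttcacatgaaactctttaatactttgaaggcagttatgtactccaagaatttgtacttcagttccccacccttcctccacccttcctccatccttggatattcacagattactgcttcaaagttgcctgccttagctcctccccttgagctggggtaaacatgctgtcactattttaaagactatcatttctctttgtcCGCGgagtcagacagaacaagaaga
Mfsd2a: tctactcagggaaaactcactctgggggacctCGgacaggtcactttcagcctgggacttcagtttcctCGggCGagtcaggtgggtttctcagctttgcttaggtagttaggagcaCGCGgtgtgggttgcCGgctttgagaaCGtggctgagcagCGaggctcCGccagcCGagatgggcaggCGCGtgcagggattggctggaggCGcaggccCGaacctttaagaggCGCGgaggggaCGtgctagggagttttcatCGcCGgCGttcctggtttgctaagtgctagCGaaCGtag
Ldhb: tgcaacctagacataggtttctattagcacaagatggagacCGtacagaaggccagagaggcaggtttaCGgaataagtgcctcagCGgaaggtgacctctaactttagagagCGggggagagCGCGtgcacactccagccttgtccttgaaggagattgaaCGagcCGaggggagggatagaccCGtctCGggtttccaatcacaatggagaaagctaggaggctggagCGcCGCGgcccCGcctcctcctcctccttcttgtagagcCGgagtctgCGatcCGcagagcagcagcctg
These held 12 (Cldn5), 12 (Abcb1b), 2 (Abcb1a), 22 (Mfsd2a) and 17 (Ldhb) CG dinucleotides. Of all 32851 windows in the RefSeq table, 39.6% held as many or more than Cldn5 and Abcb1b, 85.9% as many or more than Abcb1a, 23.1% as many or more than Mfsd2a and 31.4% as many or more than Ldhb. The most CG-rich of the 5 windows belonged to Mfsd2a and Ldhb, the genes with the fewest counts, and the poorest to Abcb1a. This describes the 5 windows only.

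Genes of vesicle transport were broadly expressed, 20 of 25, with a median of 11.99 CPM per kb. The endosomal ATPase genes Ehd4 (230.1 ± 4.07) and Ehd2 (158 ± 8.801) and the surface protein gene Bsg (229 ± 19.2) led. The caveolar coat genes Cavin1 (149.8 ± 8.12), Cavin2 (139.9 ± 6.13), Cav1 (102 ± 14.8) and Cavin3 (88.5 ± 12.1) were all expressed, as was clathrin heavy chain Cltc (103 ± 11.2). Muscle caveolin Cav3 had 0 and the leptin receptor Lepr 24 counts.

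In the Wnt pathway, receptors were present and target genes were near the detection limit. Fzd4, the receptor of brain endothelium, stood at 656, 599 and 661 CPM (94.98 ± 5.13 per kb), its co-receptors Lrp5 and Lrp6 at 42.4 ± 0.9598 and 12.9 ± 0.884, and Tspan12 at 14.1 ± 1.15 CPM per kb. The pair that receives Wnt7 signals, Adgra2 (GPR124) and Reck, stood at 31.6 ± 3.24 and 5.32 ± 0.483. Axin2, a general target of beta-catenin, had 21 counts, Notum 4, Rnf43 6, and Lef1, Nkd1 and Tnfrsf19 none. Apcdd1, another target in brain endothelium, was the exception at 4.45 ± 0.0875 CPM per kb. In all, 13 of 21 genes of this list were expressed.

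Basement membrane genes were expressed in 13 of 23 cases with a median of 15.4 CPM per kb. Sparc, Col4a1, Col4a2, Nid1 (116 ± 12.6), Lamc1 (64.95 ± 5.57) and Lama5 (60.5 ± 3.76) led. These form the network of collagen IV and laminins containing the alpha 5 chain. Col4a3, Col4a6, Nid2 and Col15a1 had 4, 5, 3 and 5 counts. The summed level was 13146, 11159.9 and 11624 CPM, highest in replicate 1.

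Some gene families were read almost wholly from 1 member and others from several. Over 40 families with 258 measured members, 136 members were expressed, and the leading member held at least 90% of the family's summed CPM per kb in 12 families and at least 50% in 32. The leader was the same in 3 of 3 libraries in 39 families. In metabolism, Ldha stood at 494, 560.3 and 504 CPM (157 ± 10.8 per kb) while Ldhb had 0 counts in 144735415 over the 3 libraries, so that Ldha was at least 11894-fold higher per kb (3 counts over the group). Eef1a1 was likewise accompanied by no count of its muscle and neuron paralog Eef1a2. Hk1 held 93.7% ± 0.377 of the hexokinase sum, with Hk2 at 2.17 ± 0.0617 CPM per kb. Slc2a1 held 91.2% ± 1.05 of the glucose transporter sum, with the neuronal carrier Slc2a3 at 3 counts. Eno1 held 93.5% ± 1.49 of the enolases, though 72.2% of its 50-base stretches recur in other genes, and the neuronal Eno2 had 0 counts.

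Several other families, most of them of membrane and junction proteins, also had 1 member far above the rest. Aqp1 held 99.8% ± 0.0297 of the aquaporin sum, Nos3 99.7% ± 0.0337 of the nitric oxide synthases and S1pr1, which receives sphingosine 1-phosphate, 99.01% ± 0.121 of its family. Cldn5 held 97.4% ± 0.5396 of 19 claudins and Cdh5 97.03% ± 0.253 of 8 cadherins. The next claudin was Cldn12 (13.2 ± 1.21 CPM per kb), followed by Cldn15 (2.79 ± 0.195). Abcb1b held 97.5% ± 0.0561 of the P-glycoprotein sum, and Ephb4 90.7% ± 0.664 of the ephrin B system. Within the Tie family Tie1 (315 ± 19.01) exceeded its partner Tek (34.9 ± 5.31) 9.09-fold, and the ligand genes Angpt1 and Angpt2 were at 3 counts and 0.347 CPM per kb. Ednrb, the endothelin B receptor, stood at 1229, 1207 and 1323 CPM (294 ± 14.5 per kb), before the endothelin-converting enzyme gene Ece1 (62.6 ± 2.62). The A receptor Ednra had 0 counts and the ligand Edn1 stood at 0.936 ± 0.0348. This set joins receptors, ligands and enzymes, so it does not compare paralogs only. The log2 ratio of Ednrb to Ece1 turned to -1.01 with the median transcript. Gata2 held 89.9% ± 0.196 of the GATA factors.

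Other families were shared among several members. The actins split between Actg1 and Actb (646 ± 34.5 CPM per kb), with Actg1 holding 61.2% ± 1.22, and the muscle actins had at most 40 counts. Among caveolins and cavins, Cavin1 and Cavin2 were nearly equal with the exon union as the length, and the leader held 29.3% ± 1.41. The log2 ratio of Cavin1 to Cavin2 was 0.099 with the exon union and 0.89 with the median transcript. The integrins were led by Itga5 (109 ± 6.26) and Itga3 (87.7 ± 8.06) on the alpha side and Itgb1 (246 ± 22.1) and Itgb3 (162 ± 6.899) on the beta side, chains of fibronectin, laminin and vitronectin receptors. Ets2 (114 ± 6.66) and Elk3 (82.98 ± 6.06) led 10 expressed ETS factors, and Klf2 (72.5 ± 5.16), a factor raised by blood flow in vivo, led 10 expressed KLF factors before Klf9 (21.8 ± 1.47) and Klf4 (21.5 ± 0.329). Connexins were low throughout, from Gja1 (6.21 ± 0.519) through Gjc1 (3.97 ± 0.289) and the arterial Gja5 (2.99 ± 0.733) to Gja4 (2.55 ± 0.934). Among VEGF ligands, Pgf (42.7 ± 2.67) exceeded Vegfb (17.3 ± 0.903) and Vegfa (6.66 ± 0.535), and Kdr led the receptors before Nrp2, Flt4 and Flt1 (31.4 ± 1.65). Igfbp3 held 89.5% ± 0.378 of the IGF binding proteins, with Igfbp4 (111 ± 7.68) next. Metallothioneins were below the threshold, with Mt2 at 0.871 ± 0.102 and Mt1 at 0.70999 ± 0.222 CPM per kb.

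Some leading positions rested on the length used or on a library. The leader was the same in 38 of 40 families with the longest transcript as the length and in 29 with the median transcript, where Notch4, Jag1, Sox18, Ccnd1, Fzd4 and Ednrb fell behind the next member. Timp2 (189, 172 and 165 CPM per kb) and Timp3 (139.7, 161 and 178) changed places between libraries, and the log2 ratio was 0.14 ± 0.27 over all 3 and -0.0061 without replicate 1. Pfkm and Pfkl were nearly equal, with a log2 ratio of 0.14 ± 0.039 that became -0.48 with the longest transcript as the length. With the same length the TIMP ratio became -0.57, and Notch4 over Notch1 came to 0.48, but with the median transcript to -0.68.

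**Figure D4:**
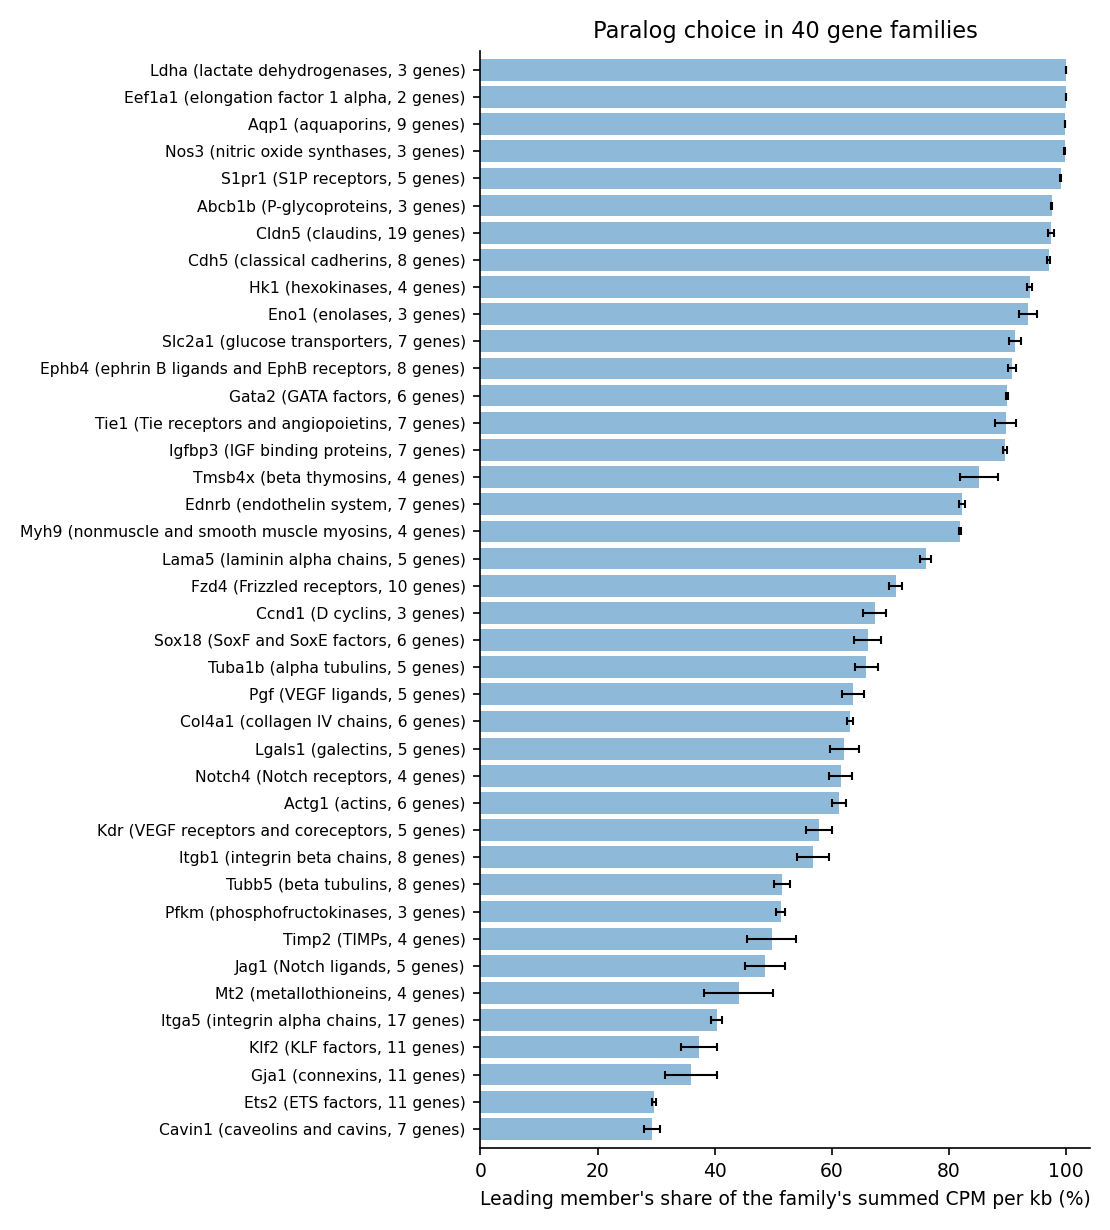
Share of the summed CPM per kb of each of 40 gene families held by its leading member (bars, mean of 3 DMSO libraries; error bars, SD), on a linear axis from 0%. The leading gene is named first, then the family and its number of measured genes; 12 leaders lie at 90% or more, and the caveolin, ETS and connexin families are shared most.

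The cultures carried the transcripts of dividing cells although they were confluent. All 25 of 25 mitosis genes were expressed, at a median of 13.03 CPM per kb, from Top2a (37.1 ± 5.38), Mki67 (29.6 ± 3.74) and Cdc20 (25.7 ± 1.62) down to Ttk (3.85). All 25 of 25 S phase genes were expressed as well, at a median of 13.1, led by Pcna (50.98 ± 4.61) and Mcm3 (37.2 ± 1.25). Both lists were chosen with earlier results of these data known. Their inhibitors were present beside them. Cdkn1a, which encodes p21, stood at 234, 247 and 221 CPM (65.9 ± 3.69 per kb), Cdkn2a, the locus of p16 and p19ARF, at 9.995 ± 1.87 and Cdkn2b at 8.65 ± 1.07 CPM per kb. In all 13 of 16 genes of the inhibitor and senescence list were expressed, with Gdf15 at 47 counts the lowest.

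Interferon-stimulated genes were expressed in 24 of 27 cases at a median of 11.96 CPM per kb. Within this list, which does not hold the Ifitm genes described above, Bst2, the virion tether, was highest at 348, 385 and 322 CPM (389 ± 35.1 per kb), and Ifit3 (80.4 ± 18.4) and Isg15 (37.5 ± 8.13) stood lower. Ifit3 shares 51.2% of its stretches with related genes. Class I antigen presentation was expressed through B2m (451 ± 49.1), H2-D1 (208 ± 23.4) and Tapbp (85.5 ± 0.737), whereas the class II genes H2-Aa and H2-Eb1 had 0 counts and H2-Ab1 1. Chemokine and adhesion genes split. Lcn2, the monocyte chemokine Ccl2 (152 ± 9.17), Selp, Cxcl1 (91.7 ± 4.54), Nfkbia (89.4 ± 6.52) and Cx3cl1 (86.9 ± 10.1) were high, while Il1b had 0, Tnf 1 and Il1a 6 counts. The leukocyte adhesion genes differed widely among themselves, Selp at 151, Sele at 8.34, Vcam1 at 6.36 and Icam1 at 0.152 CPM per kb, the last being 0.707, 0.517 and 0.763 CPM in replicates 1, 2 and 3.

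Genes that respond to blood flow, some raised and some lowered by it, were expressed in 11 of 15 cases, among them Aqp1, Nos3, Thbd (206 ± 25.4 CPM per kb), which encodes thrombomodulin, Ace (88.8 ± 6.09), Klf2 and the mechanosensitive channel Piezo1 (65.1 ± 4.92). Edn1, Pi16, Cyp1a1 and Slco2a1 lay under 1 CPM per kb. Of 20 genes of coagulation and vascular tone, 15 were expressed. The anticoagulant gene Procr (175 ± 22.7) stood beside Thbd, the clotting protein gene Vwf stood at 195 ± 27.3, and tissue factor, F3, had 56 counts. Plau (107 ± 3.34) exceeded Plat (4.97 ± 0.694) among plasminogen activators. Immediate early genes were led by Jund (94.1 ± 12.97), Klf2 and Btg2 (70.2 ± 4.25), with Fos at 2.103 ± 0.102 and Egr2 at 53 counts.

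Of 20 genes often used for endothelial to mesenchymal transition, 15 were expressed, but several of these are endothelial or general genes. Vim reached 526 ± 16.3, Acvrl1 196 ± 11.6, Eng 68.4 ± 2.42 and Fn1 34.6 ± 4.89 CPM per kb, and the transition factors Snai1 (10.5 ± 0.9305) and Snai2 (5.13 ± 0.5703) were expressed. The smooth muscle and fibroblast products Acta2 and Tagln had 4 and 6 counts, Twist1 had none, and Col1a1 stood at 0.0702 CPM per kb. Glycolytic genes were expressed in 21 of 25 cases, led by Pgk1 (390.3 ± 11.2), Aldoa (297 ± 19.8) and Pkm (234 ± 16.9), with Car9 at 13 counts. Unfolded protein response genes were expressed in 20 of 20 cases, led by the chaperones Hsp90b1 (289 ± 22.5) and Hspa5 (181 ± 11.1), with Chac1 (3.34) lowest. Cholesterol synthesis genes were expressed in 22 of 22 cases between 2.05 (Tm7sf2) and 40.97 (Insig1) CPM per kb. Both full counts come from lists chosen with earlier results of these data known. The Y-linked genes Ddx3y (9.16 ± 1.0997), Eif2s3y (7.83 ± 0.9204), Kdm5d (1.88 ± 0.0972) and Uty (1.86 ± 0.474) were expressed in every library, and Xist, which silences the second X chromosome, had 11, 12 and 7 counts.

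Most genes differed little between the libraries. Over 10424 genes with a mean of at least 5 CPM, the highest library was a median 1.15 times the lowest, 8194 genes (78.6%) stayed under 1.25 times and 42 genes (0.403%) exceeded 2 times. The common biological coefficient of variation was 0.0966. The counts of each pair gave a chi-square per degree of freedom, a ratio of variances that counting noise alone would put near 1, of 26.8 to 65.2, so no 2 of them looked like 1 library deposited again. Replicates 1 and 2, which share the library number 1 but not the P tag, were the closest pair, with an SD of log2 ratios of 0.160. Replicates 2 and 3, which share P5, gave 0.223, and replicates 1 and 3, which share neither, 0.242. Without replicate 3 the number of genes over 2 times was 14, without replicate 1 it was 17, and without replicate 2 it was 30. A ratio of highest to lowest can hardly rise when a library is left out, so numbers below 42 are built in.

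The libraries differed along gene length in every pair, and replicate 3 differed from both others along base composition. Across 10353 genes, which share these 3 libraries and are not replicates, the log2 ratio of replicate 3 to replicate 2 had a Spearman correlation of 0.59 with length and -0.65 with GC content, and that to replicate 1 of 0.35 and -0.70. For replicate 2 against 1 they were -0.34 and -0.11. The 392 genes under 1 kb had a median log2 ratio of -0.29 between replicates 3 and 2, and the 1593 genes over 6 kb of 0.17. These values touch every difference between libraries that follows, replicate 2 against 1 included, and their part in it was not tested.

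Certain groups of genes moved together between libraries. Mitochondrially encoded genes were higher in replicate 2 than 1 by a median log2 of 0.37, in 3 than 1 by 0.92 and in 3 than 2 by 0.81, in each case 15 of 15 genes. Ribosomal protein genes were lower in replicate 3, by a median log2 of -0.25 against replicate 1 (4 of 80 higher) and -0.31 against replicate 2 (2 of 80 higher). Zinc finger genes named Zfp had medians of 0.16 in both comparisons with replicate 3, with 180 and 176 of 251 higher. The median over all genes lay between -0.02 and 0.02 in the 3 pairs. Interferon-stimulated genes were higher in replicate 2 than 1 in 23 of 24 cases (median log2 0.25). In the class I and II presentation list, the 10 genes with a mean of at least 5 CPM were all higher (0.13). The class II genes H2-Aa, H2-Eb1 and H2-Ab1 were too low to be among those 10. Basement membrane genes were lower in replicates 2 and 3 than in replicate 1, with 2 of 13 and 1 of 13 higher (medians -0.25 and -0.13), as were cholesterol synthesis genes, with 4 of 22 and 2 of 22 higher. Mitosis genes were higher in replicates 2 and 3 than in 1, in 22 and 23 of 25 cases. Each of these sets 1 library against 1 other, so they have no replicate check. Over all 10424 genes, 5945 were higher in replicate 2 than 1, 5323 in replicate 3 than 1 and 4890 in replicate 3 than 2.

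**Figure D5:**
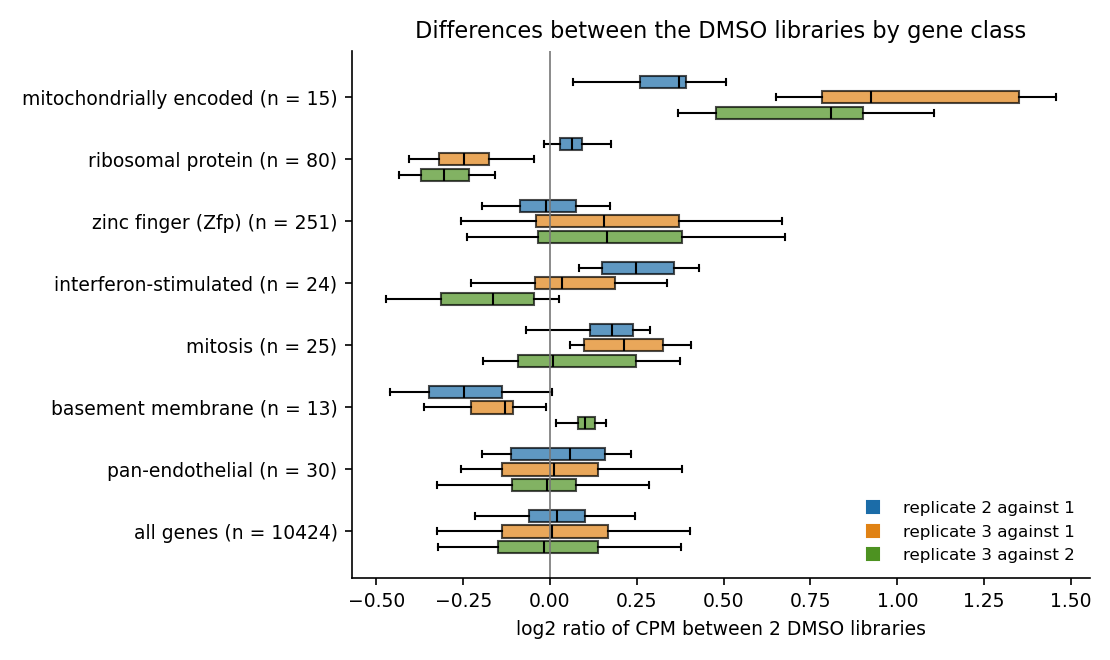
Log2 ratios of CPM for the 3 pairs of DMSO libraries by gene class, for genes with a mean of at least 5 CPM. Boxes give the quartiles with the median as a line and whiskers run from the 5th to the 95th percentile; mitochondrially encoded genes lie to the right of 0 in all 3 pairs, ribosomal protein genes to the left in both comparisons with replicate 3, and pan-endothelial genes around 0.

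Pan-endothelial genes did not move as a group. Their median log2 ratios were 0.06 for replicate 2 against 1 and 0.01 and -0.01 for replicate 3 against 1 and 2, with 19, 15 and 15 of 30 genes higher. Of 480 listed genes outside the mitochondrial genome with a mean of at least 5 CPM, 3 (0.625%) exceeded 2 times between libraries. Over all 10424 genes at this level, mitochondrial ones included, the share was 0.403%. The listed genes over 2 times were the apelin receptor Aplnr (3.72, 7.59 and 8.67 CPM), Cd36 (14.97, 26.7 and 33.1 CPM) and S100a4 (17.4, 10.03 and 8.37 CPM). Aplnr and Cd36 were lowest in replicate 1 and S100a4 was highest there. Other genes hold 56.3% of the 50-base stretches of S100a4, against 0% for Aplnr and Cd36.

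The ranking of ratios left out genes without a matched name and those with predicted, pseudogene or clone names, such as Gm, Rik and -ps. Of the 12 widest ratios among the rest, 3 belonged to nuclear genes that share most of their 50-base stretches with other genes. A further 6 belonged to the mitochondrial genome and the last 3 to neither group. Fam177a stood at 41.6, 15.3 and 6.87 CPM in replicates 1, 2 and 3, a ratio of 6.05, Rps27rt at 22.5, 10.2 and 4.55 and RPS10-NUDT3 at 11.3, 6.7001 and 2.46, and 98.5%, 91.1% and 94.5% of their 50-base stretches occur in other genes. All 3 were highest in replicate 1 and lowest in replicate 3. Of the 39 genes over 2 times whose stretches could be compared, those left out of the ranking included, 20 (51.3%) shared at least 50% of them. Over all genes it was 326 of 10353 (3.15%). The mitochondrial genes mt-Atp8 (45.1, 83.6 and 183 CPM), mt-Nd6 (10.4, 13.2 and 28.4), mt-Atp6 (1587, 1998 and 4215), mt-Rnr2 (101, 134 and 259), mt-Nd3 (74.02, 105 and 188) and mt-Nd1 (1208, 1569.6 and 2751) were all highest in replicate 3. Of these, mt-Atp6 (99.5%) and mt-Nd3 (98.0%) also share nearly all their stretches with other genes. The share was 1.04% for mt-Rnr2 and 0% for mt-Atp8, mt-Nd6 and mt-Nd1. Ms4a4c (10.2, 24.3 and 29.3 CPM), Mir6236 (15.9, 7.52 and 17.6) and Aplnr completed the 12 of this ranking. Ms4a4c was lowest in replicate 1 and Mir6236 in replicate 2. At the other end, among genes over 500 CPM, Actg1 (2711, 2690.5 and 2716 CPM) and Eif4b (560.4, 564 and 568) were among those that differed least, and both were chosen after their values were seen.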

How the data were processed

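RNA was measured in 3 libraries of DMSO-treated cells, prepared from 2 µg of RNA with a stranded poly(A) kit, per the labels' protocols. The authors deposited 1 table of raw counts for 43271 Ensembl genes. The genome build was GRCm39, per the submitters' processing notes. Aligner, annotation release, counting tool and strandedness of counting: not given in the sources used here. Overlapping and antisense genes may share reads.

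Counts were scaled by TMM over the 3 DMSO libraries alone (edgeR 4.0.16, R 4.3.3) and expressed as CPM. Names and exon lengths came from GENCODE vM21 (build GRCm38) by gene identifier, for 38606 genes (89.2%). Unmatched identifiers held 0.411% to 0.469% of counts. Length was the union of all exons. Copies were assessed as the share of 50-base stretches of a gene's longest transcript found in transcripts of other genes. The biological coefficient of variation was estimated with an intercept-only design and tested on simulated data. Promoter windows are RefSeq's, matched by symbol for 196 of 280 endothelial and barrier genes.

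The gene lists (37 lists and 40 families, 982 of 983 entries matched) and the markers were chosen with earlier results of these data known. Named genes were the 8 markers, the 20 highest per kb, the 10 with most counts and the 6 highest and 4 lowest members of each list. Family members over 1 CPM per kb and the 5 highest genes of the long noncoding classes were also named. So were the 12 widest ratios, after unmatched, predicted, pseudogene and clone-named genes were left out. Other named members were chosen after their values were seen, and some genes are not reported here. Alternatives were 2 other lengths, library-size scaling and DESeq2 1.42.0 size factors, other thresholds and filters, and leaving out each library. Plots used Python 3.11.15 and matplotlib 3.10.9.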

Additional observations from a re-analysis of the deposited data

How the results depend on the processing

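Counts of expressed genes, of expressed endothelial and barrier genes, and of expressed markers of other cell types stayed within 1.5 times their value under each length, scaling, threshold and left-out library tried. Leaving out the mitochondrially encoded genes changed the share of the 10 most abundant genes to 3.94%. The number of genes over 2 times between libraries was 117 with a filter at a mean of 1 CPM and 2195 without a filter. It lay between 14 and 30 when a library was left out, a fall that is built into a ratio of highest to lowest. Length was the choice that moved single values most. Levels of 30.5% of expressed genes moved by over 1.5 times with the longest transcript and of 79.2% with the median transcript. Relative to the second member, the leader's log2 ratio turned to -0.48 with the longest and -2.89 with the median transcript for phosphofructokinases, and to -0.57 and -1.05 for TIMPs, which ranged from -0.0061 (without DMSO replicate 1) to 0.27 (without DMSO replicate 3) when a library was left out. With the median transcript it turned to -0.68 for Notch receptors, -1.12 for Notch ligands, -0.12 for SoxF and SoxE factors and for Frizzled receptors, -0.49 for D cyclins, -1.01 for the endothelin system and -0.25 for metallothioneins. The cause was not tested beyond the change of length. No paired analysis was possible because the libraries form 1 group and no result comes from a test. Depth limits only genes with a few counts.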
